A study of Triticum aestivum with 96 samples.

Results

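In Norstar wheat, 111 probesets differed between the winter and the spring line during the middle of a long cold treatment, while the corresponding pair of Manitou lines was near equal. They were drawn from 61179 probesets other than controls on the Affymetrix Wheat GeneChip, of which 19122 were eligible. A probeset was eligible when its highest mean over the 3 arrays of a line and day reached a log2 signal of 7, its name did not end in _x_at or _s_at (probes that match several transcripts), and it was not among 27 probesets that the study listed separately. For each background the winter minus spring difference was averaged over 14, 21, 35 and 42 days, and members had an absolute mean below 0.3 in Manitou and of at least 0.8 in Norstar. In 55 members the winter Norstar line was the higher (median 1.03, largest 2.58), and in 56 the spring Norstar line was (median -0.998, largest -2.31). Without the arrays numbered replicate 1 the rule gave 130 members, 83 of them winter-higher, and without replicate 2 it gave 98 with 43, so the split moved with the arrays used. These choosing differences are log2 values and descriptions, and no test was made on those 4 days.

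The samples were crowns, the base of the stem from which a cereal regrows after winter, of 4 near-isogenic lines kept at 6 °C. Crowns were taken before cold (0 days), after 2 days, then 4 times between 14 and 42 days (14, 21, 35 and 42), and last at 56 and at 70 days. One label field lists 28 where the others have 21 days. Winter Norstar is the very hardy parent with vrn-A1, and spring Norstar is its derivative with the Vrn-A1 region of Manitou. Spring Manitou is the non-hardy parent with Vrn-A1, and winter Manitou carries the vrn-A1 region of Norstar. All 4 lines share vrn-B1 and vrn-D1, the derivatives came from 10 backcrosses, and the swapped segment is longer than the gene itself but leaves the CBF cluster at Fr-2 in each background's own state. Each of the 96 samples was a pool of 25 crowns on its own array, with 3 per line and day. The labels call them biological replicates without naming separate plantings, so p-values measure the spread between these samples.

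Vrn-A1 encodes a MADS-box transcription factor that moves the shoot apex towards flowering. Winter alleles are expressed little until a long cold period has raised them, the process called vernalization, whereas the spring allele is expressed without cold. Cold acclimation is a separate programme in which crowns accumulate late embryogenesis abundant (LEA) and other protective proteins, and in cereals it is known to wane as plants become reproductive. The comparison asks which transcripts follow the allele at Vrn-A1 in a hardy background but not in a tender one.

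The line labels were checked on the Vrn-A1 probeset. Before cold its log2 signal was 5.14, 5.50 and 5.61 in winter Norstar and 4.38, 5.97 and 5.30 in winter Manitou. It was 9.56, 9.33 and 9.58 in spring Norstar and 9.78, 9.47 and 9.72 in spring Manitou. The winter and spring lines did not overlap, as their labels require. By 70 days the order had turned, with winter Norstar at 12.17, 12.04 and 11.90 and spring Norstar at 10.96, 10.83 and 10.84.

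A pair of Manitou arrays stood apart. For 119 probesets whose Norstar means were all at least 2 log2 units above all Manitou means, the median level was 8.40 to 8.78 on the Norstar arrays and 4.46 to 4.68 on 46 of the 48 Manitou arrays. It was 5.86 on the winter Manitou array of 14 days numbered replicate 2 and 5.43 on the spring Manitou array of 2 days numbered replicate 1. These arrays thus carried some signal of transcripts otherwise bright only in Norstar, among them 3 members. Without this pair the rule gave 113 members, of which 107 were shared with the 111. The counts at 2 days that moved without them are given beside those counts.

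The 111 probesets came from 108 sequence clusters, so most stood for different transcripts. The held part of the study's annotation and the platform table gave an informative description for 32, of which 19 were higher in winter and 13 in spring Norstar. The other members are named by probeset only. Just inside the Norstar limit were TaAffx.96188.2.S1_at (-0.81) and Ta.13280.2.A1_at (-0.81), and just outside were TaAffx.2.1.S1_at (0.80) and Ta.5184.1.S1_at (-0.80). At the Manitou limit Ta.5437.1.S1_at (0.30) and Ta.11463.1.S1_at (-0.29) lay inside, and Ta.5913.1.S1_at (0.30) and Ta.1727.1.A1_at (0.30) lay outside. Being near 0 on average in Manitou did not mean being near 0 each day: 15 members had a single one of the 4 days with a Manitou difference of at least 0.8, and 33 were below 0.3 on all 4.

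The size of the difference by day is given as a description. Members were chosen on the days from 14 to 42, so smaller medians on the other days follow in part from that choice. In the 55 members higher in winter Norstar, the median winter minus spring difference in Norstar was 0.14 at 0 days, 0.36 at 2 days, 0.87 at 14 days and 1.30 at 42 days, then 1.00 at 56 days and 0.27 at 70 days. In the 56 members higher in spring Norstar it was -0.08, -0.12, -0.77 and -1.17 on the same first 4 days, then -0.71 and -0.63. The Manitou medians stayed between -0.15 and 0.21 in both sets on all 8 days. Over all probesets tested the median was near 0 on each of the other 4 days, at 0.02, 0.00, -0.02 and 0.02 in Norstar at 0, 2, 56 and 70 days.

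**Figure D1:**
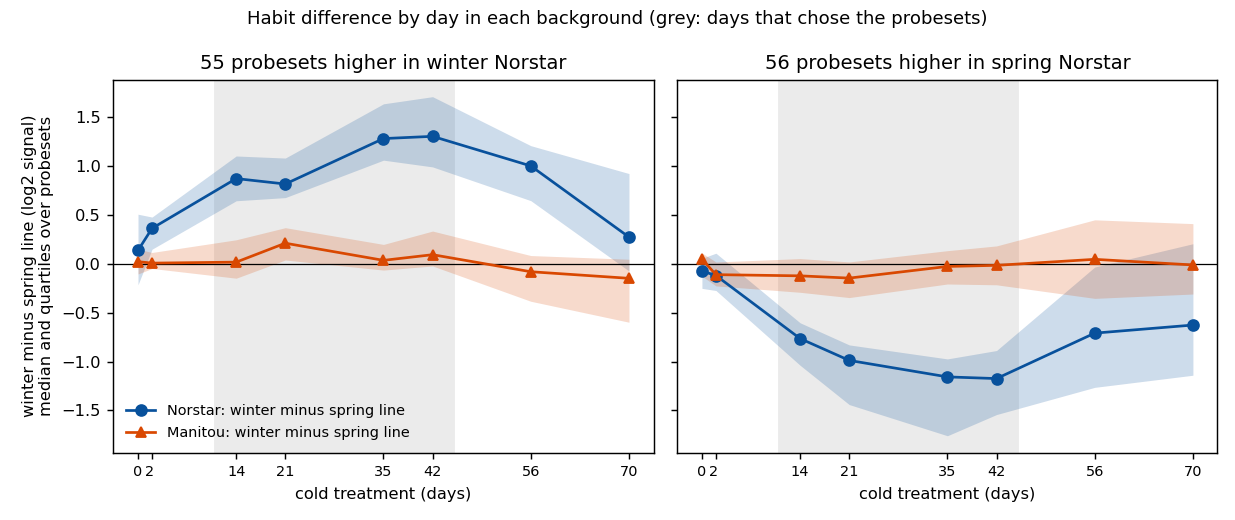
Winter minus spring line (log2 signal) against days of cold, for the 55 members higher in winter Norstar (left) and the 56 higher in spring Norstar (right), in Norstar (circles) and Manitou (triangles). Points are medians over members, bands are quartiles, and the grey span holds the days that chose the members; outside it the Norstar median of the left set is 1.00 at 56 days and 0.27 at 70 days.

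The levels behind this gap differed between the 2 sets. They are descriptions, since a gap between the Norstar lines at 14, 21 and 35 days follows largely from the choice. Among members higher in winter Norstar, the median level of that line was 1.44 log2 units above its own level before cold at 14 days and 1.93 above at 21 days, against 0.31 and 0.95 in spring Norstar. Among members higher in spring Norstar, the winter line lay below its own starting level (median -0.59 at 14 days, -0.55 at 35 days) while the spring line lay above it (0.14 and 0.62). At 70 days both Norstar lines were above their start in the second set, by 0.50 and 0.89. On the 4 choosing days, spring Norstar lay nearer the Manitou level in 37 of the 55 members and winter Norstar in 18, and in the other set the counts were 35 and 21.

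Days 0, 2, 56 and 70 did not enter the choosing differences and were tested. The brightness limit of the rule counted all 8 days, so a member could reach it on one of these days only. A linear model of 32 group means was fitted in limma to 32702 probesets, p-values were adjusted by the Benjamini-Hochberg method over all of them, and a difference was called at an adjusted p under 0.01. The typical spread was small, with a median residual SD of 0.149 log2 units over all probesets and 0.341 over the members. All 111 members were bright enough to be tested.

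After 56 days of cold 51 of the 111 members differed between winter and spring Norstar, 45.9% against a background of 6.85% of all probesets tested. All 51 kept the direction in which they were chosen, 30 from the winter-higher set (2.96% of all were higher in winter Norstar) and 21 from the spring-higher set (3.89% of all were lower). At 70 days 39 were called, 35.1% against a background of 15.3%, of which 35 kept their direction and 4 had turned. Of all probesets, 8.84% were higher and 6.45% lower in winter Norstar on that day. Among the 19122 eligible probesets, which are brighter, 9.26% were called at 56 days and 22.6% at 70 days. With 2 arrays a group, leaving out each replicate number in turn, the counts were 29 to 34 at 56 days and 27 to 32 at 70 days. For these and all later counts with a replicate number left out, the share of all probesets called is not given here. Members called on both days numbered 31 (27.9%, background 3.55%), with 20 called at 56 days only and 8 at 70 days only.

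Few members differed between the Norstar lines before or early in the cold. At 0 days 5 were called (4.50%, background 0.0826%) and at 2 days 4 (3.60%, background 0.0489%), all in their choosing direction. Only 27 and 16 probesets of all tested were called on these days. With the replicate number as a block within days, which pairs same-numbered samples of each day, the count at 0 days was 10. The share of all probesets called in that fit is not given here. Without the pair of Manitou arrays that stood apart, which enter the shared spread, the count at 2 days was 2. In all, 59 members (53.2%, background 18.6%) were called in Norstar on at least one of the 4 days, 52 on none, and 2 on all 4 (1.80%, background 0.0153%).

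In Manitou no member was called at 0 days (background 0.0336%) or at 2 days (background 0.0428%) in limma, and 2 had an unadjusted p under 0.05 on each day. At 56 days 5 were called (4.50%, background 3.84%), of which 3 had the direction seen in Norstar. The count was 12 with the replicate block within days (10.8%, background 7.78%) and 8 with array quality weights (background not given here). At 70 days 8 were called (7.21%, background 6.50%), 4 in each direction, and 13 with the block (11.7%, background 10.3%). The block pairs same-numbered samples on every day. Their deviations correlated above 0.1 between the Manitou lines for each pair at 70 days but not for every pair at 56 days. Leaving out each replicate number gave 0 to 1 at 56 days and 2 to 5 at 70 days. Among the 19122 eligible probesets, which are brighter, the main fit called 5.86% at 56 days and 9.60% at 70 days. Both shares were above those of the members.

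The Norstar difference minus the Manitou difference was itself tested. It was called for 3 members at 0 days (2.70%, background 0.0336%), 3 at 2 days (2.70%, background 0.0214%), 17 at 56 days (15.3%, background 1.07%) and 10 at 70 days (9.01%, background 0.581%). Every one of these calls ran in the choosing direction. Of the 19122 eligible probesets, 1.14% and 0.837% were called at 56 and 70 days. The member counts are partly fixed by the rule, since 34 members reached its brightness limit of 7 in Norstar only and 6 in Manitou only. A member dim in Manitou had little room for a difference there, and those bright in both backgrounds were not counted apart. Over the 4 days 22 members (19.8%, background 1.55%) were called at least once and 5 (4.50%, background 0.119%) at both 56 and 70 days. Without the pair of arrays that stood apart, 1 remained called at 2 days. Leaving out each replicate number gave 0 to 2 at 0 days, none at 2 days, 8 to 9 at 56 days and 4 to 7 at 70 days. With the replicate block within days the counts at 56 and 70 days were 29 (26.1%, background 2.14%) and 19 (17.1%, background 2.00%).

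The members may be set beside 464 other eligible probesets with a Norstar difference of at least 0.8 whose Manitou difference reached 0.3. Of these, 63.4% were called between the Norstar lines at 56 days and 55.6% at 70 days, shares above those of the members. For the test of Norstar against Manitou the shares of the 464 were 11.9% and 9.27%, next to 15.3% and 9.01% of the members. The reverse pattern, at least 0.8 in Manitou and below 0.3 in Norstar, was met by 12 eligible probesets.

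**Figure D2:**
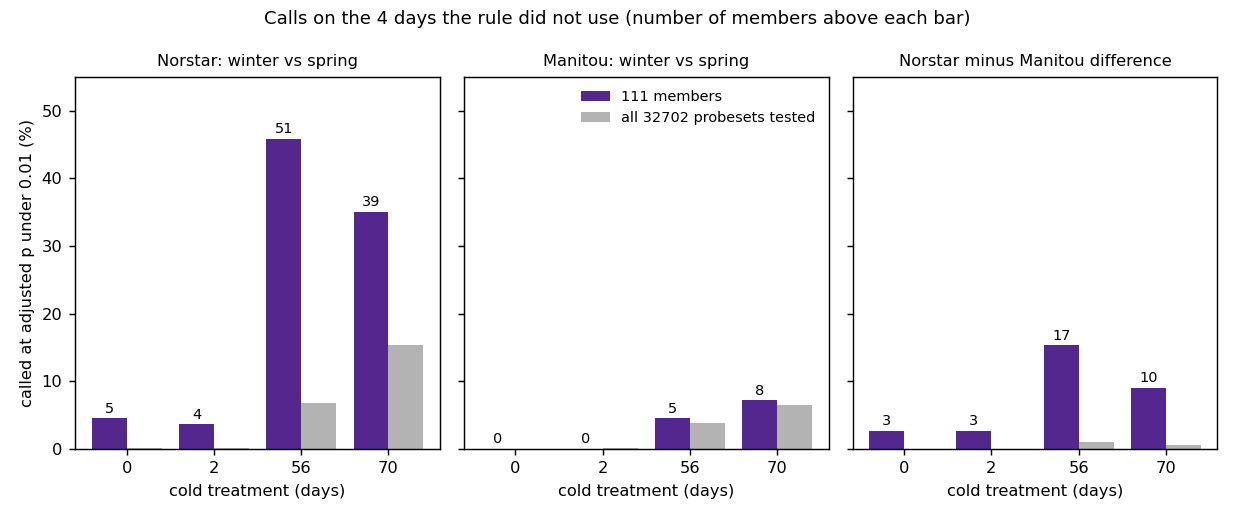
Percent of the 111 members (purple, count above each bar) and of all 32702 probesets tested (grey) called at an adjusted p under 0.01. Panels show winter against spring Norstar, winter against spring Manitou, and the difference of the differences, on the 4 days outside the choosing differences. In Norstar 51 members are called at 56 days and 39 at 70 days; in Manitou 5 and 8.

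The list of cold-regulated, dehydrin and LEA genes held 4 members, all placed in the winter-higher set by the choosing days. On the days outside the choosing differences, 2 of the 4 were called higher in winter Norstar at 56 days and 1 at 70 days. Of the 46 probesets of this list that were tested, 17 were higher and 7 lower in winter than in spring Norstar at 56 days (median 0.74, all probesets -0.02), and 8 and 7 at 70 days. In Manitou none was higher and 3 were lower at 56 days. For the difference between backgrounds none of the 4 members was called on any tested day. Of the 46, 3 were called higher and 1 lower at 56 days, and 3 and 0 at 70 days. The descriptions come from genes that the study selected on these samples, so the counts are no independent evidence of direction.

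BLT14.1 (Ta.13380.1.S1_at) belongs to a family of cold-induced transcripts first known from barley. Its signal at 0 days was 6.85, 6.71 and 7.68 in winter Norstar, 6.85, 7.21 and 7.74 in spring Norstar, 6.78, 6.95 and 7.25 in winter Manitou and 7.02, 6.51 and 7.18 in spring Manitou, which overlapped. After 2 days it had risen in all 4 lines, by 1.20, 0.95, 1.21 and 1.18. At 35 days winter Norstar was at 9.91, 10.28 and 10.01 and spring Norstar at 8.82, 8.28 and 8.51, with the Manitou arrays between 8.57 and 8.91. Only winter Norstar stood apart on that day, which is a choosing day. At 56 days the Norstar difference was 1.15 (SE 0.21, adjusted p = 4.1e-05) and at 70 days 0.63 (adjusted p = 0.021), and the Manitou differences were 0.20 and 0.27. The difference between backgrounds had an adjusted p of 0.071 at 56 days, which missed the threshold.

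The LEA group 1 probeset Ta.13396.1.S1_at was dim everywhere before cold, with group means differing by 0.16 or less, and rose above background in Norstar alone. On the 56-day arrays winter Norstar read 7.56, 6.81 and 6.62 and spring Norstar 5.09, 4.37 and 5.39, without overlap. The Manitou arrays lay between 3.34 and 4.55 on that day. The Norstar difference was 2.04 (SE 0.42, adjusted p = 0.00023) at 56 days and 1.504 (adjusted p = 0.0047) at 70 days. The 14-day winter Norstar array numbered replicate 2 was at 4.26, beside 6.67 and 6.43. Without replicate 1 the adjusted p at 56 days was 0.027. The difference between backgrounds was not called for this probeset on any tested day.

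The other LEA group 1 member, Ta.13165.2.S1_at, shares its Brachypodium match with the first, but its levels were of another kind. Before cold it read 9.00, 8.13 and 9.19 in winter Norstar and 8.66, 7.75 and 8.63 in spring Norstar, against 3.56 to 4.35 on all 6 Manitou arrays. It rose within 2 days by 2.50 in winter and 2.62 in spring Norstar. The winter and spring Norstar arrays did not overlap at 56 days, at 11.44, 11.50 and 11.75 against 10.63, 10.42 and 10.45, and the difference was 1.07 (SE 0.38, adjusted p = 0.056). Without the pair of Manitou arrays that stood apart, on which this probeset read 7.52 and 6.72, the same difference had an adjusted p of 0.00026. At 70 days it was 0.03.

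The fourth of the list, LEA protein D-34 (Ta.29375.1.S1_at), read 6.57, 7.24 and 6.84 in winter and 5.70, 5.38 and 5.14 in spring Norstar at 35 days. The Manitou arrays of that day, a choosing day, lay between 4.96 and 5.75, so winter Norstar alone was high there. At 56 and 70 days its Norstar differences of 0.52 (adjusted p = 0.12) and 0.50 (adjusted p = 0.094) missed the threshold.

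A metallothionein, Ta.28695.6.S1_at, had the largest difference among described members of the winter-higher set. Metallothioneins are small cysteine-rich proteins that bind metal ions. At 21 days winter Norstar read 9.01, 9.11 and 9.56 and spring Norstar 7.09, 6.97 and 7.55, and all Manitou arrays were between 5.38 and 6.45. Spring Norstar had not left its level before cold, 7.44, 7.44 and 7.29, whereas winter Norstar had started at 7.72, 7.03 and 7.82. At 56 days the difference was 1.27 (SE 0.22, adjusted p = 1.7e-05) in Norstar and -0.44 (adjusted p = 0.20) in Manitou, and the difference between them, 1.72 (SE 0.32), had an adjusted p of 0.00025. Before cold it was already 1.91 higher in winter Norstar than in winter Manitou and 1.66 higher in spring Norstar than in spring Manitou.

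The only transcription factor with a description was a GATA zinc finger protein, Ta.17381.1.S1_at. At 0 days all 12 arrays lay between 5.09 and 5.62. At 70 days winter Norstar read 6.51, 6.23 and 6.92, spring Norstar 4.46, 4.81 and 4.59, winter Manitou 4.69, 4.70 and 4.56, and spring Manitou 4.62, 4.05 and 4.34. The 3 lines other than winter Norstar overlapped there. In Norstar the difference was 1.84 (SE 0.19, adjusted p = 6.7e-12) at 56 days and 1.93 (adjusted p = 6.6e-13) at 70 days. In Manitou it was 0.70 (adjusted p = 0.0090) and 0.31 (adjusted p = 0.31), so at 56 days the same direction was called in Manitou as well, and the backgrounds differed by 1.14 (adjusted p = 0.0053) and 1.62 (adjusted p = 3.9e-05).

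**Figure D3:**
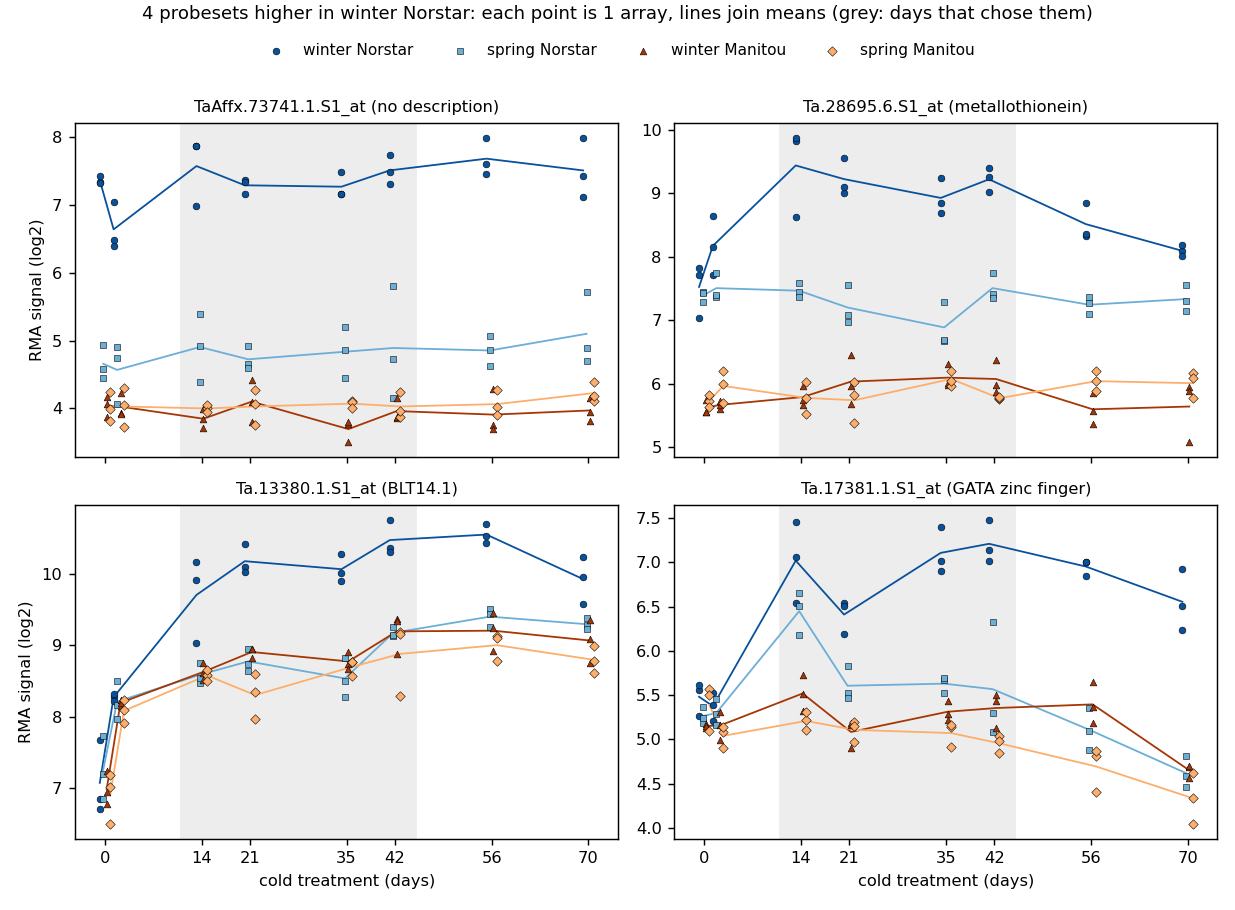
RMA signal (log2) against days of cold for 4 members higher in winter Norstar; each point is 1 array, lines join the means of 3, and the grey span marks the choosing days. Winter Norstar is the top line of every panel from 21 days on, and for BLT14.1 the other 3 lines run together between 8.28 and 8.91 at 35 days.

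Single enzymes of lipids, sugars and walls were among the described members of the winter-higher set. A GDSL-type lipase (Ta.18076.1.S1_at) read 8.04, 8.36 and 8.29 in winter and 6.05, 6.28 and 5.84 in spring Norstar at 35 days, while no Manitou array of any day was above 4.98. Its Norstar difference was 1.11 (SE 0.29, adjusted p = 0.0044) at 56 days and -0.01 at 70 days. An oleosin (Ta.14258.1.S1_at), a protein that coats oil bodies, had peaked by 14 days in winter Norstar at 7.94, 8.27 and 8.21, with all other lines between 6.03 and 6.85. By 56 days its difference was 0.47 (adjusted p = 0.0034) and by 70 days -0.05. The test between backgrounds called neither the lipase nor the oleosin on any tested day.

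A xyloglucan xyloglucosyl transferase (Ta.14995.2.S1_a_at), which cuts and rejoins wall polymers, kept its difference to the end. At 70 days winter Norstar read 8.55, 8.28 and 8.49 and spring Norstar 7.32, 7.18 and 7.30, a difference of 1.17 (SE 0.30, adjusted p = 0.0022), after 1.33 (adjusted p = 0.00098) at 56 days. Manitou overlapped, at 7.56, 7.51 and 6.88 in winter and 7.24, 7.33 and 7.41 in spring. A UDP-glucosyltransferase (Ta.11076.2.A1_a_at), of a family that attaches sugars to small molecules, rose within 2 days by 1.30 in winter and 1.43 in spring Norstar, and the changes were -0.09 and -0.35 in Manitou. Between the Norstar lines it then held in the winter line only. At 56 days the Norstar difference was 1.502 (adjusted p = 0.00014), with 7.59, 6.99 and 7.36 against 5.73, 5.64 and 6.06. The test between backgrounds called neither this member nor the xyloglucan transferase on any tested day.

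The cell wall list held 3 members, 2 higher in winter and 1 in spring Norstar. Of its 34 probesets tested, 3 were higher and 15 lower in winter Norstar at 56 days, and 4 and 15 in winter Manitou. The glycine-rich wall protein Ta.6174.1.S1_at was not called on any of the later days (-0.45 at 56 days, adjusted p = 0.53). The pectin acetylesterase Ta.23400.1.S1_at, higher in spring Norstar, was called in both backgrounds at the end. At 70 days its difference was -0.92 (adjusted p = 7.9e-08) in Norstar and -0.78 (adjusted p = 7.2e-06) in Manitou, and the test between backgrounds gave -0.14 (adjusted p = 0.83). The thioesterase Ta.11463.1.S1_at did likewise, with -1.18 and -0.75.

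A pair of members described as xylanase inhibitors, proteins of cereals that block microbial wall-degrading enzymes, were among the winter-higher set and are named after their values were seen. XIP-I (Ta.1200.1.S1_at) read 11.88, 11.60 and 12.10 in winter and 10.45, 9.91 and 10.82 in spring Norstar at 70 days, which did not overlap (1.47, SE 0.29, adjusted p = 5.0e-05). In Manitou the arrays of that day overlapped, between 10.41 and 11.46. The other (Ta.21262.1.A1_at) differed by 0.72 (adjusted p = 0.00073) at 56 days and by 0.11 at 70 days. Before cold XIP-I was 1.32 lower in spring Norstar than in spring Manitou.

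The largest member of all, TaAffx.73741.1.S1_at, has no description and differed before any cold. At 0 days winter Norstar read 7.34, 7.33 and 7.43 and spring Norstar 4.45, 4.58 and 4.94, and the Manitou arrays were between 3.82 and 4.24. Winter Norstar alone was high, and no array of another line on any day exceeded 5.80. The Norstar differences were 2.71 at 0 days (SE 0.25, adjusted p = 1.6e-12), 2.07 at 2 days, 2.83 at 56 days and 2.41 at 70 days. Against Manitou they gave 2.69, 2.08, 2.99 and 2.67, each called, although without the pair of arrays that stood apart the value at 2 days was 1.94 with an adjusted p of 0.015. The probesets with the most similar course over the 32 group means were Ta.12679.1.A1_at (r = 0.95), Ta.11754.1.A1_at (r = 0.91) and TaAffx.16873.1.A1_at (r = 0.90), of which only Ta.11754.1.A1_at was bright enough to be eligible, with choosing differences of 1.97 in Norstar and -0.99 in Manitou. The group means share arrays and normalization, so these correlations are descriptions.

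Ta.6275.1.S1_at, also without a description and named after its values were seen, was the other member called on all 4 days in both tests. At 0 days it read 6.96, 7.07 and 7.08 in winter and 5.79, 5.41 and 5.61 in spring Norstar, and between 4.26 and 4.52 in Manitou. Its Norstar difference was 1.43 at 0 days (adjusted p = 3.1e-08) and 2.08 at 70 days (adjusted p = 5.7e-15). Spring Norstar lay between winter Norstar and Manitou, 1.13 above spring Manitou before cold.

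The other members called in Norstar before cold, also named after their values were seen, were Ta.20776.1.S1_at, Ta.6344.1.S1_at and Ta.21106.1.A1_at. Ta.20776.1.S1_at is phytoene synthase, the entry step of carotenoid synthesis. It read 7.44, 7.74 and 7.83 in winter Norstar, 6.40, 6.72 and 6.85 in spring Norstar and 7.97 to 8.28 in Manitou. Here spring Norstar was the low line, 1.02 below winter Norstar (adjusted p = 0.00011) and 1.42 below spring Manitou. Ta.6344.1.S1_at, described as OSA15, a protein with an ATA15 match, differed by 0.87 (adjusted p = 4.1e-07), and Ta.21106.1.A1_at by 1.08 (adjusted p = 0.0091). At 2 days TaAffx.16225.1.A1_at (-0.89, adjusted p = 0.0087) and Ta.25693.1.A1_at (-0.82, adjusted p = 0.0087) joined the first 2.

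Ta.25053.1.S1_at, the second largest of the winter-higher set, was the most variable. At 42 days it read 8.93, 10.69 and 8.83 in winter and 7.02, 6.18 and 5.61 in spring Norstar. At 0 days winter Manitou alone ran from 3.77 to 7.12. Its Norstar difference was 1.70 at 56 days (SE 0.70, adjusted p = 0.11) and -1.12 at 70 days (adjusted p = 0.28), neither called.

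On the spring side TaAffx.59867.1.S1_at, without a description, had the largest difference. Spring Norstar read 7.09, 7.19 and 6.69 at 0 days, 9.67, 10.21 and 9.61 at 35 days and 10.68, 10.23 and 9.78 at 56 days, while winter Norstar read 6.51, 6.79 and 6.67, then 6.73, 7.28 and 6.65, then 7.81, 7.39 and 7.83. At 70 days winter Norstar was at 10.07, 10.15 and 9.08, so that the lines were near each other at the end. The difference was -2.55 (SE 0.26, adjusted p = 7.6e-12) at 56 days and -0.91 (adjusted p = 0.0057) at 70 days. No Manitou array exceeded 6.47, and the backgrounds differed by -2.73 at 56 days (adjusted p = 5.4e-07). Most similar in course were TaAffx.113419.1.S1_at (r = 0.95), TaAffx.107453.1.S1_at (r = 0.93) and TaAffx.115488.1.S1_at (r = 0.93).

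Ta.13153.1.S1_at, also undescribed, did not close its gap. Winter Norstar read 5.55, 6.24 and 6.16 and spring Norstar 9.49, 8.57 and 9.26 at 70 days, a difference of -3.12 (SE 0.38, adjusted p = 1.2e-09), after -1.85 (adjusted p = 0.00026) at 56 days. The Manitou arrays stayed between 4.19 and 5.69 on all days. At 14 days the winter Norstar arrays disagreed, at 8.58, 5.61 and 8.05, so the lines overlapped there. TaAffx.129409.1.S1_at, named after its values were seen, had a later course of the same kind, with spring Norstar at 5.99, 6.25 and 6.62 at 14 days and 8.37, 9.13 and 7.91 at 56 days, against 5.52, 5.48 and 5.53 in winter Norstar (-2.96, adjusted p = 2.1e-13).

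Senescence and ethylene were represented by single members. Ta.5148.1.S1_a_at is described as SAG12-like, a cysteine protease whose Arabidopsis namesake marks ageing leaves. At 56 days it read 6.95, 6.46 and 6.56 in winter and 9.68, 9.96 and 9.03 in spring Norstar, a difference of -2.90 (SE 0.50, adjusted p = 1.3e-05). Both Manitou lines were at the higher level that day, 9.39, 8.82 and 8.41 and 8.69, 8.89 and 7.92, so winter Norstar was the line apart. At 70 days winter Norstar was at 9.68, 10.52 and 8.53 and overlapped spring Norstar (0.70, adjusted p = 0.36), and winter Manitou was 1.94 above spring Manitou (adjusted p = 0.0047).

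1-aminocyclopropane-1-carboxylate oxidase (Ta.425.2.S1_at), which makes ethylene, read 7.12, 7.60 and 7.26 in winter and 9.18, 9.03 and 9.03 in spring Norstar at 35 days, and 6.15 to 6.60 in Manitou. In both Norstar lines it had fallen within 2 days, by 0.88 and 0.97, from levels 1.83 and 2.26 above the Manitou line of the same habit. At 56 days the difference was -0.67 (SE 0.21, adjusted p = 0.022). Phosphoenolpyruvate carboxykinase (Ta.13280.2.A1_at), an enzyme that leads from organic acids towards sugars, differed by -1.30 at 56 days (SE 0.21, adjusted p = 3.7e-06) and by -0.12 at 70 days, and the backgrounds differed by -1.62 at 56 days (adjusted p = 0.00030).

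The list of protein kinases, phosphatases and receptors held 5 members, the most of any list, 1 in the winter-higher and 4 in the spring-higher set. Of its 79 probesets tested, 8 were higher and 19 lower in winter than in spring Norstar at 56 days (median -0.11, all probesets -0.02) and 16 and 27 at 70 days, while the counts in Manitou were 5 and 13, then 16 and 16. Only 1 of the 5 members was called, at 56 days, and this was phosphoenolpyruvate carboxykinase, which the word kinase placed in the list. A serine/threonine kinase (Ta.5331.1.A1_a_at) read 4.27, 3.67 and 5.21 in winter and 6.84, 4.99 and 6.05 in spring Norstar at 35 days, with 1 spring array inside the winter range. At 56 days they overlapped, at 7.10, 6.40 and 6.49 against 6.06, 5.28 and 6.52 (0.71, adjusted p = 0.30). Before cold both Norstar lines were about 2.5 below Manitou (-2.53 and -2.49). A wall-associated receptor kinase (Ta.18507.2.S1_a_at) likewise differed by -0.48 at 56 days (adjusted p = 0.28) and -0.14 at 70 days. A second serine/threonine kinase, Ta.11050.1.S1_at, named after its values were seen, differed by 0.48 at 56 days (adjusted p = 0.17) and by 0.68 at 70 days (adjusted p = 0.019). Outside the list, a protein with a harpin-induced domain (Ta.19525.1.S1_at) read 5.74, 5.44 and 5.87 in winter and 6.91, 6.48 and 6.56 in spring Norstar at 35 days, and its difference at 56 days was -0.28 (adjusted p = 0.44).

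A flavanone 3-hydroxylase (Ta.7223.2.S1_at), of the flavonoid pathway, read 6.40, 6.01 and 6.84 in winter and 8.22, 6.92 and 7.88 in spring Norstar at 35 days. They did not overlap on that day, which is a choosing day. By 56 days it read 8.47, 7.71 and 7.73 in winter and 7.66, 7.95 and 8.19 in spring Norstar, a difference of 0.04 (adjusted p = 0.96). The Manitou arrays of 56 days were between 5.87 and 6.69, below both. A further probeset of the same cluster, Ta.7223.1.S1_a_at, gave -0.06 at 56 days.

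The major facilitator superfamily antiporter Ta.1464.2.S1_a_at, a membrane transporter, reversed. At 35 days it read 6.76, 6.49 and 7.00 in winter and 7.63, 8.15 and 8.04 in spring Norstar. At 70 days winter Norstar was the higher, at 6.45, 6.57 and 6.37 against 4.42, 4.44 and 4.94 (1.86, SE 0.24, adjusted p = 4.9e-09). In Manitou it was 0.46 at 70 days (adjusted p = 0.23), and the test between backgrounds had an adjusted p of 0.013. The other members called against their choosing direction at 70 days were Ta.23230.1.S1_at from the winter-higher set (-1.78) and TaAffx.38460.1.S1_at (1.19) and Ta.10556.1.A1_at (1.82) from the spring-higher set, all named after their values were seen. Ta.23230.1.S1_at was lower in winter Manitou too (-1.85, adjusted p = 9.7e-07).

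**Figure D4:**
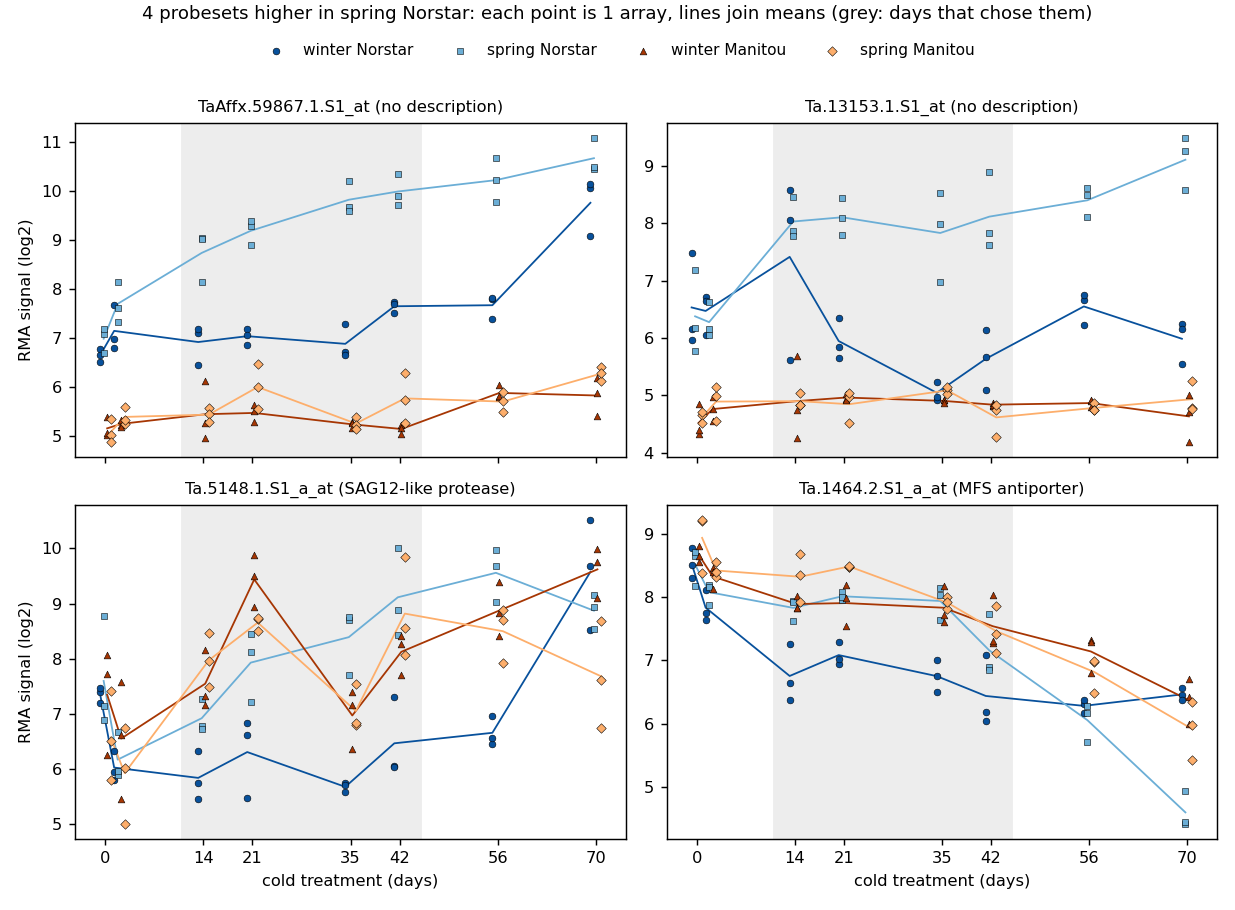
RMA signal (log2) against days of cold for 4 members higher in spring Norstar; each point is 1 array, lines join the means of 3, and the grey span marks the choosing days. The gap between the Norstar lines is -2.55 at 56 days and -0.91 at 70 days for TaAffx.59867.1.S1_at, -1.85 and -3.12 for Ta.13153.1.S1_at, and turns to 1.86 at 70 days for the antiporter.

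Norstar and Manitou were also compared before cold, within each habit. At 0 days 38 members differed between winter Norstar and winter Manitou (34.2%, background 9.32%) and 47 between spring Norstar and spring Manitou (42.3%, background 10.2%). These counts are partly fixed by the rule, since 34 members reached its brightness limit of 7 in Norstar only and 6 in Manitou only. Among the 71 members that reached it in both backgrounds, 14 were called in winter lines (19.7%) and 21 in spring lines (29.6%), and among the 17382 eligible probesets of the same kind the shares were 8.72% and 9.67%. Both contrasts called 32 of the 111 (28.8%, background 7.47%), 21 with Norstar higher and 11 with Norstar lower, and 6 and 15 were called in winter or spring lines only. The differences ran from -3.79 to 6.02 in winter and from -3.48 to 6.22 in spring lines. Of the 464 probesets with a Manitou difference as well, 22.8% and 21.8% were called.

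Low Manitou signal went with part of the membership. Every Manitou group mean was below 5 in 15 members, 6 of the winter-higher and 9 of the spring-higher set, and below 7, the brightness the rule asked of at least one group, in 34. No member had all its Norstar means below 5, and 6 had them all below 7. A dim probeset leaves little room for a habit difference, and an allele that the probes match poorly and a transcript that is little expressed cannot be told apart on these arrays.

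**Figure D5:**
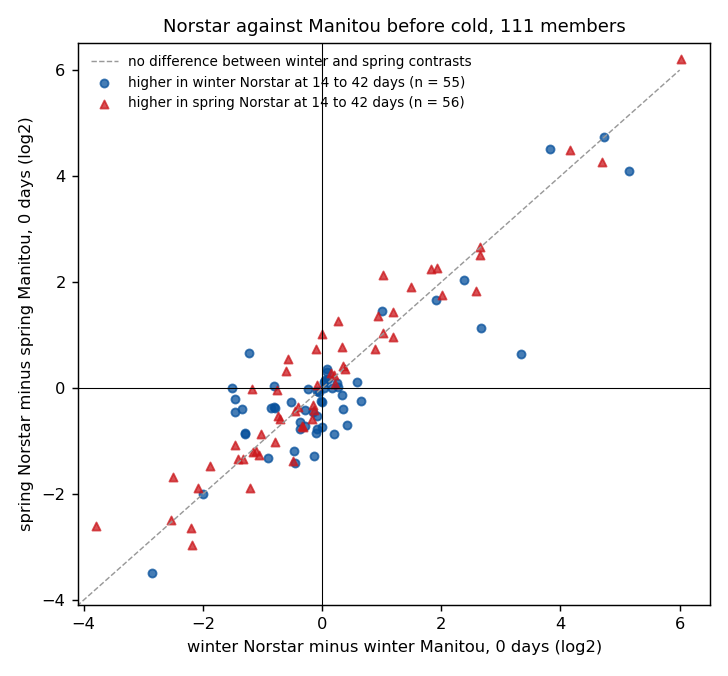
Norstar minus Manitou before cold (log2 signal) in the winter lines (horizontal) and in the spring lines (vertical); each point is 1 of the 111 members, circles higher in winter and triangles higher in spring Norstar on the choosing days, and the dashed line marks equal values. The 32 members called in both habits keep their sign, 21 above 0 and 11 below.

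The first 2 days of cold moved members in both directions. In winter Norstar 43 members changed (38.7%, background 26.5%) and in spring Norstar 38 (34.2%, background 25.3%), against 26 in winter Manitou (23.4%, background 28.8%) and 20 in spring Manitou (18.0%, background 27.7%). Among the 19122 eligible probesets, which are brighter, the shares were 36.6%, 36.0%, 40.0% and 38.6%. The 34 members bright in Norstar only are part of these counts. Among the 71 bright in both backgrounds, 26 and 24 changed in winter and spring Norstar (36.6% and 33.8%) and 21 and 18 in winter and spring Manitou (29.6% and 25.4%), beside 37.6%, 37.0%, 41.1% and 39.7% of the 17382 eligible probesets of that kind. In winter Norstar 16 of the winter-higher set rose and 6 fell, and 2 of the spring-higher set rose and 19 fell. In spring Norstar the counts were 14 and 4, then 3 and 17. Of all probesets tested, 12.3% rose and 14.3% fell in winter Norstar, and 13.3% rose and 12.0% fell in spring Norstar. Changes were called in both Norstar lines and neither Manitou line for 18 members (16.2%, background 1.80%), and in all 4 lines for 11 (9.91%, background 16.0%). These combinations were not split by brightness, and the 34 members bright in Norstar only have little room for a call in Manitou. The 18 are therefore partly fixed by the rule.

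An acid phosphatase-like member, Ta.12413.1.S1_at, was the winter-higher member of the list of kinases, phosphatases and receptors. At 2 days winter Norstar read 7.77, 8.43 and 8.13 and spring Norstar 6.49, 7.72 and 7.63, and only winter Norstar had risen since 0 days, by 1.06. At 21 days winter Norstar stood at 9.99, 9.32 and 9.79. The difference at 2 days, 0.83, had an adjusted p of 0.28, and at 56 and 70 days the Norstar lines were within 0.26 of each other.

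The mean of the leaf markers moved with the lines on the choosing days, and crowns hold leaf bases. The markers were matched by words in descriptions, which come largely from genes that the study selected on these samples. A difference in their mean may thus follow in part from that selection and is no independent evidence of a difference in tissue. The mean does not show whether every marker moved the same way. The mean log2 level of 31 photosynthesis probesets was 9.33 to 9.61 on winter Norstar arrays and 8.52 to 9.20 on spring Norstar arrays over 14 to 42 days, without overlap on any of those days. In Manitou winter lay above spring at 14, 21 and 35 days and not at 42 days. At 56 days 5 of the 31 were higher and 4 lower in winter Norstar, and at 70 days 1 and 5. Of all probesets tested, 2.96% and 3.89% were so called at 56 days and 8.84% and 6.45% at 70 days. The 2 markers of senescing tissue, also genes that the study selected on these samples, ran in opposite directions. Mean signals of a further SAG12 probeset were 3.03, 3.03, 2.95 and 3.24 in winter and 3.29, 3.69, 4.31 and 7.95 in spring Norstar at 14, 21, 35 and 42 days. Those of the gamma-VPE probeset, a vacuolar protease, were 9.91, 10.14, 10.63 and 11.02 in winter and 9.17, 9.04, 9.14 and 10.09 in spring Norstar. In Manitou each ran the same way. The SAG12 means were 3.41, 3.22, 3.44 and 5.61 in winter and 4.32, 3.53, 4.24 and 8.32 in spring Manitou. The gamma-VPE means were 9.32, 9.45, 9.45 and 9.78 in winter and 8.73, 8.37, 8.72 and 9.18 in spring Manitou. No probeset matched the seed storage list. The part of tissue make-up in the members' differences was not tested, and fewer cells of a type and less RNA per cell cannot be told apart in such pooled samples.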

How the data were processed

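Crowns of 4 wheat lines at 8 cold durations were profiled on 96 arrays. The authors extracted signals with MAS 5.0 and normalized them by RMA in GeneSpring (version not given in the sources used here). The deposited values are log2 signals, 1.92 to 14.73, with array medians of 5.66 to 5.78, and were used as given. Array number per group limits precision.

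The difference of winter and spring lines was averaged by the rule in the report (Python 3.11.15, pandas 2.3.3, numpy 2.4.6, matplotlib 3.10.9). The 32 group means were fitted to all arrays in limma 3.58.1 (R 4.3.3), for probesets with a highest group mean of at least 5, excluding control, _x_at and _s_at probesets. The model follows the study's genotype by time analysis at a false discovery rate of 0.01, and was checked on simulated data. Of the 1742 annotation and 1273 platform rows held, 43 and 15 matched members.

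The members and gene lists were chosen with earlier results of these data known. Named are the 10 largest described members of each direction, the 3 largest of each direction, those next to the limits, up to 3 per gene list, and the Vrn-A1 probeset. All 17 lists were matched by words in descriptions, and those not described held 1 or 2 members or none.

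Replicate numbers were checked as pairs: deviations of same-numbered arrays from their group means correlated above 0.1 for every pair at 0 days (0.31 to 0.75), between the Norstar lines also at 42, 56 and 70 days but not at 2 days, and between the Manitou lines at 2, 35, 42 and 70 days but not at 56 days. The study's design text speaks of random blocks. Alternatives covered brightness limits, probeset types, array medians, quantile normalization, array weights, the replicate block and each replicate left out. Sequences were not used here.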

Additional observations from a re-analysis of the deposited data

Results flagged for a closer look

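The habit difference was tested between the backgrounds, and it differed for 3 members at 0 days, 3 at 2 days, 17 at 56 days and 10 at 70 days, each called in limma at an adjusted p under 0.01 and each in the direction of the choosing difference. At 2 days 1 was called without the pair of Manitou arrays that stood apart, and none with any replicate number left out. The undescribed TaAffx.73741.1.S1_at was called on all 4 days, with a Norstar minus Manitou difference of 2.69, 2.08, 2.99 and 2.67, although without that pair the value at 2 days had an adjusted p of 0.015. At 56 days the undescribed TaAffx.59867.1.S1_at gave -2.73, the SAG12-like protease Ta.5148.1.S1_a_at -3.27 and phosphoenolpyruvate carboxykinase Ta.13280.2.A1_at -1.62. The metallothionein Ta.28695.6.S1_at gave 1.72 on that day. The GATA zinc finger Ta.17381.1.S1_at gave 1.14 at 56 days and 1.62 at 70 days. Ta.13153.1.S1_at gave -2.82 at 70 days. These counts are partly fixed by the rule, since 34 of the 111 members reached its brightness limit in Norstar only. With 3 arrays in each group, single arrays were not tested as outliers.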

How the results depend on the processing

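Of 209 counts under settings other than leaving out a replicate number, 192 were within 1.5 times the reported count, and the cause of the other 17 was not tested except where fewer arrays entered. The counts in this section are given without the share of all probesets called under the same setting. Members called between the Norstar lines at 0 days numbered 10 with the replicate block within days, 3 without the 0-day arrays numbered replicate 2 and 3 with only the arrays of the lines compared. At 2 days they numbered 2 with no brightness limit, 7 with array quality weights, 2 without the pair of Manitou arrays that stood apart and 2 with only the arrays of the lines compared. Between the Manitou lines the count was 2 at 56 days with no brightness limit, 8 with weights and 12 with the block within days, and 13 at 70 days with that block. For the difference between backgrounds it was 1 at 0 days without the arrays numbered replicate 2, 1 at 2 days without the pair of Manitou arrays, 26 with weights and 29 with the block within days at 56 days, and 19 with that block at 70 days. The additive replicate block gave 52 and 41 in Norstar at 56 and 70 days. The settings without the 0-day arrays, without the pair of Manitou arrays, and with a Manitou limit on each of the 4 days, which left 33 members, were chosen after the data were seen.

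Leaving out each replicate number gave 3 to 4, 1 to 2, 29 to 34 and 27 to 32 members called in Norstar at 0, 2, 56 and 70 days. In Manitou it gave 0 to 0, 0 to 0, 0 to 1 and 2 to 5, and for the difference between backgrounds 0 to 2, 0 to 0, 8 to 9 and 4 to 7. For 2 against 0 days it gave 30 to 34 and 20 to 30 in winter and spring Norstar and 18 to 20 and 16 to 19 in winter and spring Manitou. For Norstar against Manitou before cold it gave 30 to 34 in winter and 32 to 42 in spring lines. The number of members itself was 98 to 134, with 80 to 94 of the 111 among them.

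Of 38 called results of named members, 523 alternatives left 479 called in the same direction, 44 no longer called and none reversed, and 36 of the 44 came from leaving out a replicate number.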
